A study of Mus musculus with 6 samples.

Results

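Many mammalian genes have a second gene on the other DNA strand of the same locus, and mouse nomenclature marks it by adding "os", for opposite strand, to the symbol of the partner. Here these genes were taken from the transcript tables as every gene name ending in os, or in os and a number, whose remaining part was itself a gene name in the tables. Of 49203 gene names, 301 met this rule, and the 81 with a mean of at least 0.1 FPKM over the 6 libraries are described here, each with its named partner. FPKM is the number of fragments per kilobase of transcript relative to library depth. The genes were thus chosen by their mean level over all 6 libraries, which is given as a description. The genes just inside the limit were Tvp23bos (0.102 FPKM) and Hk1os (0.105), and those just outside were Lrp8os3 (0.0995) and Pmepa1os (0.0960).

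The libraries were total RNA of mouse Sertoli cell lines, the somatic support cells of the testis tubule, with a green fluorescent protein (GFP) reporter on the Y chromosome. In 3 libraries the cells were green (GFP-positive 2, 4 and 7) and in 3 they were not (GFP-negative 9, 11 and M). The labels name no strain, age or treatment that sets the groups apart. They also do not tell whether libraries of a group came from separate lines or cultures, and the spread behind each p-value may be technical. Coverage times length came to 7.16 to 10.4 Gb of aligned bases in each library.

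A gene on the opposite strand can start beside the partner's own start and run away from it, or can lie across part of the partner's body. Divergent pairs often start from 1 open promoter region, and some transcripts of this kind act on the partner in cis, while others have roles elsewhere in the cell or no known role. Most are noncoding, of low level and poorly conserved in sequence, but some named in this way were later found to encode small proteins.

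The symbol of such a gene already states its strand relative to the partner, so the match of strand and name describes the annotation only. All 81 genes lay on the same chromosome as the partner and on the other strand, as did all 301. In 29 pairs the spans overlapped at the 5′ ends, in 15 the genes pointed apart without overlap, and in 22 one gene lay wholly within the span of the other. The 3′ ends overlapped in 9 pairs, and in 6 the genes pointed towards each other without touching. The outermost 5′ ends of the pair were within 1 kb of each other in 35 pairs and within 100 bp in 13, and the distance ran from 7 bp (Phf2os1) to 860437 bp (Pard3bos3, deep inside the long gene Pard3b). In GENCODE M21, an annotation of the earlier build GRCm38 matched by transcript identifier, 50 of the 81 genes had exon bases that face an exon of the partner, up to 76.5% of the exon bases (Efhd1os). The labels describe a strand-specific kit, but the sources used here do not give whether counting used the strand. Reads from such facing exons may therefore be shared between the genes of a pair.

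The term noncoding did not hold for every gene. RefSeq holds 64 of the 81 names, and 7 of them were protein-coding genes: Wdr83os, Pigbos1, Cebpzos, Slc7a6os, Brd3os, Cdiptos and Crxos. The others were 55 long noncoding RNA genes, 1 antisense RNA gene (Emx2os) and 1 transcribed pseudogene (Fbxl12os). The 7 coding genes held 44.1% of the summed FPKM of all 81, mostly through Wdr83os. Their summed level was 64.8, 65.9 and 59.8 scaled FPKM in GFP-positive 2, 4 and 7, against 31.6, 31.3 and 25.6 in GFP-negative 9, 11 and M. The sum over the other 74 genes was 57.1, 54.4 and 62.8 in the GFP-positive and 56.9, 65.9 and 57.0 in the GFP-negative libraries. On this scale the sums of the coding genes did not overlap between the groups, and those of the other genes did. The gap lay largely in Wdr83os, Pigbos1 and Cebpzos, and not in all coding genes. Slc7a6os and Brd3os were not higher in the GFP-positive libraries (log2 difference -0.33 and -0.03). The gap also depends on the scale, since with an equal sum of FPKM per library the log2 difference of Wdr83os was 0.06.

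Levels were low. The median gene had a mean of 0.308 scaled FPKM (FPKM divided by a scale factor per library), against 4.29 for the median partner. The opposite-strand gene was below the partner in 66 of 81 pairs. Only 18 genes had a mean of at least 1 and 4 of at least 5 scaled FPKM, while 50 were under 0.5. Those 50 rested on a median of 2105 aligned bases per gene and library, against 16181 for the others. In at least 1 library 18 genes were listed at 0.

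Between the groups 8 of the 81 genes passed the test, of which 7 were higher in GFP-positive libraries and 1 was lower. The test was limma on log2(scaled FPKM + 0.5) over 20904 features with Benjamini-Hochberg adjustment at 0.05, in which 17.4% of all features passed, 10.2% higher and 7.16% lower. The share among the opposite-strand genes was 9.88%. Their median log2 difference was 0.05, beside -0.01 over all features. The pseudocount of 0.5 shrinks differences of genes at such levels. A gene with a mean under 0.1 in 1 group of libraries is kept only if it is above 0.1 in the other. Among the genes past the test this was the case for B9d1os, Bloc1s6os, Kank4os and Sox6os. The share of genes past the test is therefore no measure of the opposite-strand genes as a set. By level, 5 of the 50 genes from 0.1 to 0.5 scaled FPKM passed, beside 4.44% of all features at that level. From 0.5 to 5 scaled FPKM 1 of 27 passed, beside 18.3%, and at 5 or more 2 of 4, beside 27.6%. The 2 groups of libraries did not overlap in 13 genes that were higher and 10 that were lower in GFP-positive cells, 28.4% of the genes in either direction, beside 40.9% of all features (20.9% higher and 20.0% lower). When each library was scaled to an equal sum of FPKM, none rose and 10 fell. On that scale the median of all features stood at -0.60 and that of the opposite-strand genes at -0.34.

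**Figure D1:**
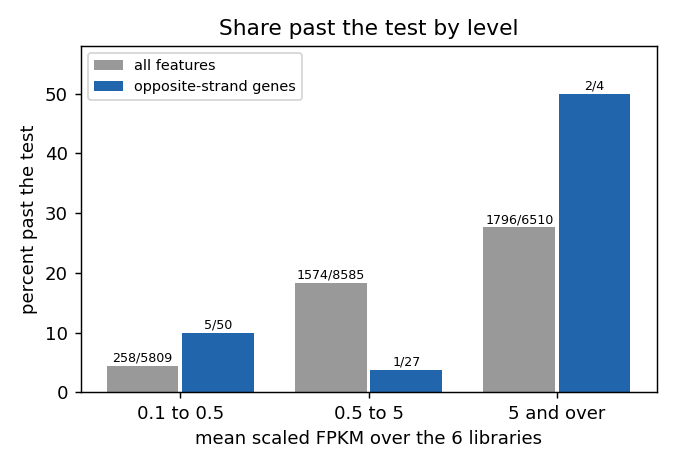
Percent of features past the test (vertical axis) by mean scaled FPKM over the 6 libraries (horizontal axis), for all features (grey) and for the opposite-strand genes (blue), with counts above the bars. The bars of the opposite-strand genes rest on 50, 27 and 4 genes, and 5, 1 and 2 of them passed.

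Of the 7 rises, 3 were of protein-coding genes, and these had the highest levels. Wdr83os encodes Asterix, a small protein of the endoplasmic reticulum that helps to insert membrane proteins (chromosome 8, 85807369 to 85808968, plus strand, mm39). Its level was 35.5, 41.4 and 38.6 scaled FPKM in GFP-positive 2, 4 and 7, and 17.5, 22.2 and 14.2 in GFP-negative 9, 11 and M. All GFP-positive libraries were above all GFP-negative ones, with a log2 difference of 1.10 (SE 0.25, limma adjusted p = 0.0243). Scaled to an equal sum of FPKM that difference was 0.06 and did not pass.

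The partner Wdr83, which encodes a scaffold protein with WD repeats, went the other way. It stood at 0.442, 0.608 and 0.777 scaled FPKM in the GFP-positive and at 1.33, 6.09 and 3.92 in the GFP-negative libraries, again without overlap and with GFP-negative 9 closest to the GFP-positive ones. The log2 difference was -1.77 (SE 0.46, limma adjusted p = 0.0328). In GENCODE, 52.3% of the exon bases of Wdr83os face exons of Wdr83. Whether reads over these facing exons were shared between the 2 genes was not tested.

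Pigbos1 encodes a microprotein of the mitochondrial outer membrane (chromosome 9, 72947000 to 72950061, plus strand). It stood at 16.5, 16.5 and 12.0 scaled FPKM in the GFP-positive and 7.42, 2.94 and 4.08 in the GFP-negative libraries. The groups did not overlap, GFP-negative 9 was the highest of its group, and the log2 difference was 1.62 (SE 0.34, limma adjusted p = 0.0190). With an equal sum of FPKM it was 0.64 and did not pass (limma adjusted p = 0.170). Its partner Pigb, a mannosyltransferase gene of glycosylphosphatidylinositol anchor synthesis, stood at 1.36 ± 0.457 in GFP-positive and 2.09 ± 0.241 scaled FPKM in GFP-negative libraries (SD, n = 3), with overlap, and did not pass (log2 difference -0.50, limma adjusted p = 0.251). The ratio of Pigbos1 to Pigb was higher in the GFP-positive libraries by 2.12 on the log2 scale (SE 0.42, limma adjusted p = 0.00915, adjusted over 4009 opposite-strand pairs).

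Cebpzos (chromosome 17, 79223928 to 79228477, plus strand) overlaps the 3′ end of Cebpz, a gene of ribosome biogenesis. It stood at 6.13, 4.63 and 4.83 scaled FPKM in the GFP-positive and 2.38, 0.881 and 0.815 in the GFP-negative libraries. GFP-negative 9 was again the closest to the other group. The log2 difference of 1.71 (SE 0.36, limma adjusted p = 0.0190) was the largest among the 81 genes at the pseudocount of 0.5, whereas at 0.1 that of Kank4os was larger (2.17 against 2.01). With an equal sum of FPKM the difference of Cebpzos was 0.88 and did not pass (limma adjusted p = 0.106). Cebpz itself overlapped between the groups (7.89 ± 3.03 and 7.05 ± 1.00 scaled FPKM, log2 difference 0.10, limma adjusted p = 0.843), and the ratio in the pair rose by 1.61 (SE 0.41, limma adjusted p = 0.0216). The other 4 coding genes did not pass, and 2 of them, Slc7a6os (-0.33) and Brd3os (-0.03), had differences at or below 0.

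The remaining 4 rises were of long noncoding RNA genes of low level. With an equal sum of FPKM none of the 4 passed. Atad3aos (chromosome 4, 155845599 to 155853721, plus strand) starts 49 bp from Atad3a, a gene for a mitochondrial inner membrane ATPase. It stood at 0.827, 0.488 and 0.474 scaled FPKM in the GFP-positive and 0.209, 0.0118 and 0.0929 in the GFP-negative libraries (log2 difference 0.86, SE 0.23, limma adjusted p = 0.0366). The groups did not overlap. Atad3a overlapped between the groups, at 16.0 ± 1.06 and 14.5 ± 6.20 scaled FPKM (log2 difference 0.22, limma adjusted p = 0.640), and the ratio in the pair did not pass (0.64, SE 0.42, limma adjusted p = 0.279).

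Bloc1s6os (chromosome 2, 122574858 to 122580334, minus strand) starts 89 bp from Bloc1s6, which encodes pallidin, a subunit of a complex that forms lysosome-related organelles. It stood at 0.680, 0.384 and 0.512 scaled FPKM in the GFP-positive and 0.195, 0.0705 and 0 in the GFP-negative libraries (log2 difference 0.80, SE 0.22, limma adjusted p = 0.0379). Bloc1s6 stood at 8.78, 7.86 and 8.31 in the GFP-positive and 4.80, 4.62 and 4.56 in the GFP-negative libraries, a log2 difference of 0.77 (limma adjusted p = 0.0510). Neither gene overlapped between the groups, and the ratio in the pair differed by 0.03 (95% interval of the pair difference from -0.61 to 0.67, limma adjusted p = 0.944). This was the pair among the called genes whose partner had a difference of the same sign and size. The mean of Bloc1s6os over the GFP-negative libraries was under 0.1, so it met the limit only through the GFP-positive ones. Its p-value is therefore given as a description.

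Kank4os and Sox6os both lie within the span of the partner. Kank4os (chromosome 4, 98682005 to 98687137, plus strand) stood at 0.823, 0.296 and 0.437 scaled FPKM in the GFP-positive and 0, 0.0516 and 0.0405 in the GFP-negative libraries (log2 difference 0.91, SE 0.23, limma adjusted p = 0.0297). Kank4, of a family that links the cytoskeleton to adhesions, was lower than Kank4os in the GFP-positive libraries (0.0756 ± 0.0239) and did not pass (-0.18, limma adjusted p = 0.556). Sox6os (chromosome 7, 115631214 to 115631785, plus strand) stood at 0.323, 0.510 and 0.321 in the GFP-positive and 0.0925, 0 and 0.0542 in the GFP-negative libraries (log2 difference 0.69, SE 0.19, limma adjusted p = 0.0376). Neither gene overlapped between the groups. The transcription factor gene Sox6 overlapped between them, at 1.53 ± 0.409 and 3.12 ± 1.54 scaled FPKM (-0.75, limma adjusted p = 0.206). The ratios rose by 1.09 in the Kank4 pair and 1.43 in the Sox6 pair (SE 0.34 and 0.37, limma adjusted p = 0.0441 and 0.0231). Sox6os rested on at most 2316 aligned bases in any library. All GFP-negative values of Kank4os and Sox6os were under 0.1, so both met the limit and the filter only through the GFP-positive libraries. Their p-values and those of the ratios are therefore given as a description.

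The single fall was that of B9d1os, a gene with 1 exon and so without a splice junction to show its strand (chromosome 11, 61395212 to 61395885, minus strand). It stood at 0.0174, 0.0137 and 0 scaled FPKM in the GFP-positive and 0.278, 0.228 and 0.322 in the GFP-negative libraries (log2 difference -0.60, SE 0.16, limma adjusted p = 0.0337). These levels rested on 146, 100 and 0 aligned bases against 2008, 1382 and 1879. The partner B9d1, which encodes a protein at the base of the primary cilium, starts 85 bp away and was higher in the GFP-positive libraries. It stood at 20.8, 21.2 and 17.2 scaled FPKM in the GFP-positive and 8.43, 5.98 and 4.30 in the GFP-negative libraries (log2 difference 1.63, SE 0.29, limma adjusted p = 0.0127). Scaled to an equal sum of FPKM, B9d1 did not pass (0.63, limma adjusted p = 0.133), while B9d1os did (-0.88, limma adjusted p = 0.0139). The ratio in the pair fell by 2.23 (SE 0.33, limma adjusted p = 0.00501). No exon base of B9d1os faces an exon of B9d1 in GENCODE. All GFP-positive values of B9d1os were under 0.1, so it met the limit and the filter only through the GFP-negative libraries. Its p-value and that of the ratio are therefore given as a description.

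**Figure D2:**
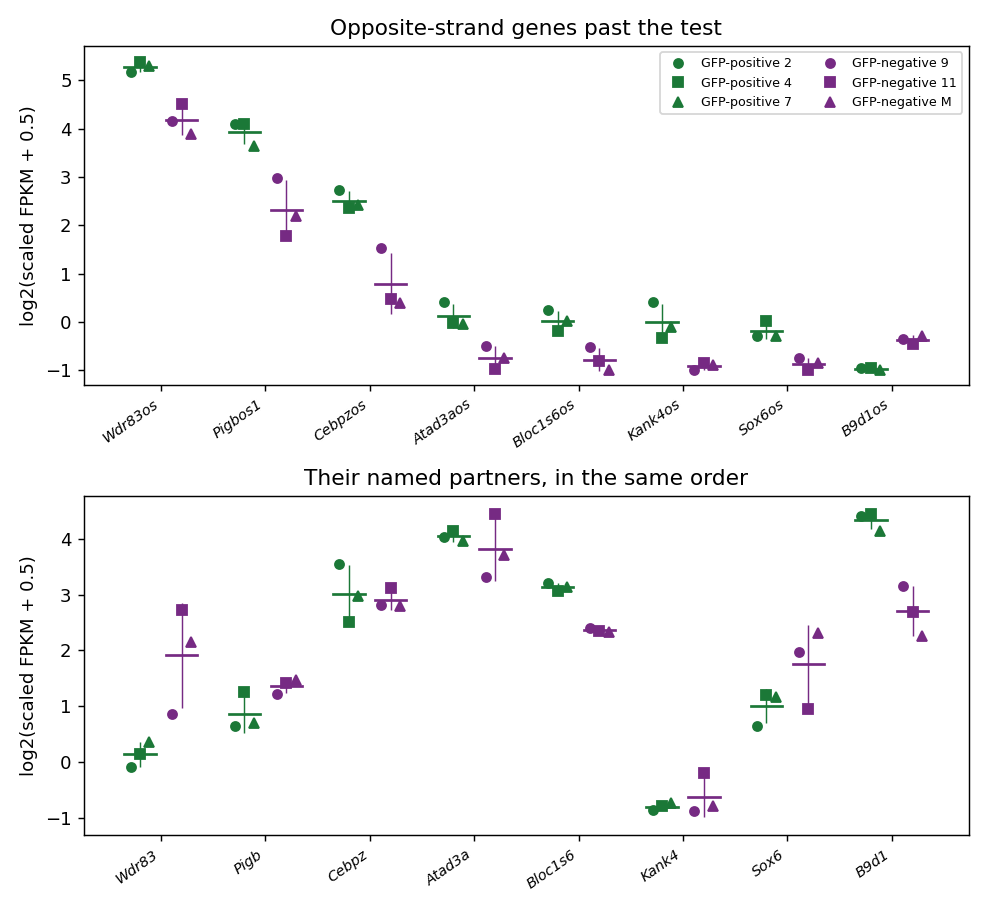
Levels of the 8 opposite-strand genes past the test (upper panel) and of their partners in the same order (lower panel), as log2(scaled FPKM + 0.5), 1 symbol per library, GFP-positive in green and GFP-negative in purple, with the mean (horizontal line) and SD (vertical line) of 3 libraries. The groups do not overlap for any of the 8, whereas among the partners they are apart for Wdr83, Bloc1s6 and B9d1.

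Calls depended on single libraries. None passed without GFP-positive 7 (76 of the 81 genes tested, 12 at an unadjusted p under 0.05) or without GFP-negative M (79 tested, 10 at an unadjusted p under 0.05), in limma as before. Without GFP-positive 2, 2 of 79 tested genes passed, Wdr83os and Kcnab3os, and the latter is not among the 8. Without GFP-positive 4, Cebpzos and Kank4os passed of 76 tested, and without GFP-negative 11, Pigbos1 and Wdr83os passed of 79. Without GFP-negative 9, 14 of 80 passed, all 8 among them. Over all features the share past the test moved likewise, from 0.234% without GFP-negative M to 26.7% without GFP-negative 9.

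The start regions of the pairs were compared in RefSeq sequences of GRCm38.p6, which give for each gene 250 bases before and 50 after a start. Such a window was found for 51 of the 81 genes and for both genes in 40 pairs. In 14 pairs the window of the opposite-strand gene also held the start of the partner. That start points the other way by annotation, since all the pairs lie on opposite strands. The windows of the pairs that went opposite ways (Wdr83os and B9d1os), of Pigbos1, and of a divergent pair of a developmental gene (Lhx1os) are shown, since each holds both starts. They read 5′ to 3′ along the strand of the opposite-strand gene, whose start follows the first 250 bases. Capitals mark, on either strand, the letters CCAAT of the CCAAT box, the letters GGGCGG of the GC box, and the letters CCGGAAG known from ETS factors.
Wdr83os, chr8:85080713-85081012, plus strand: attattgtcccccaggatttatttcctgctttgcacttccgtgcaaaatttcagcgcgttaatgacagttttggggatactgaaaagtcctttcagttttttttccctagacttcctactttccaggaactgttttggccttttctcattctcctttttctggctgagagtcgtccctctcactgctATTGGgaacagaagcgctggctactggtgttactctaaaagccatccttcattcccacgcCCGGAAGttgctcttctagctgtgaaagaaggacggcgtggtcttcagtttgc
Pigbos1, chr9:73039468-73039767, plus strand: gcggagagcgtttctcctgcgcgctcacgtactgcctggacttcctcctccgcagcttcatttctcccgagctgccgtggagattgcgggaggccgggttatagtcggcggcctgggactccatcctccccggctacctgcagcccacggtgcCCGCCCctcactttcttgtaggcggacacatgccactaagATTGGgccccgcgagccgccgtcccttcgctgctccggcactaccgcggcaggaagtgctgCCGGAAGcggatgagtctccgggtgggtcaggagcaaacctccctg
B9d1os, chr11:61505037-61505336, minus strand: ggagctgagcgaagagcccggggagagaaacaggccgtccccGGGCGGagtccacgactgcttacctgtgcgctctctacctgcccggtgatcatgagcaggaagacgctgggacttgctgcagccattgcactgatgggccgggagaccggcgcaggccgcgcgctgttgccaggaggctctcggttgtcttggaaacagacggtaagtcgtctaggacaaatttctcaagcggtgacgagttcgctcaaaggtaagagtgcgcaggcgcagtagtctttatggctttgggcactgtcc
Lhx1os, chr11:84525410-84525709, plus strand: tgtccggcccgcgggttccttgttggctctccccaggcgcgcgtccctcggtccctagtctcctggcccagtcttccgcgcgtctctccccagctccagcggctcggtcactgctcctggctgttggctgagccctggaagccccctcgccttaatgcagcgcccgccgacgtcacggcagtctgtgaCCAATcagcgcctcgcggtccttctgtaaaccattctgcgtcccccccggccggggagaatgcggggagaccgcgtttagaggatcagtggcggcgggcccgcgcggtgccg

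In these windows the start of the partner lies at base 34 for Wdr83, 232 for Pigb, 193 for B9d1 and 125 for Lhx1, so that the starts are 217, 19, 58 and 126 bp apart. The Wdr83os window held 9 CpG dinucleotides, against 27, 23 and 33 in those of Pigbos1, B9d1os and Lhx1os and a median of 7 over all windows. CCAAT was found in 37.4% of all 32851 windows of the same length and in 22 of 75 windows of the opposite-strand genes, and GGGCGG in 35.7% and in 31 of 75. The third motif, CCGGAAG, was found in 8.86% of all windows and in 6 of 75. Windows can overlap, since the 51 genes have 75 of them. The windows shown were picked partly by the values of their pairs, so they do not give the share of close pairs that went the same way. Of the 35 pairs with 5′ ends within 1 kb, 22 (62.9%) had differences of the same sign, beside 53.3% of all opposite-strand pairs. The latter were not matched for distance. Where the spans overlapped at the 5′ ends, 14 of 28 pairs had the same sign. A match of letters does not show that a factor was bound.

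Of 75 pairs with both genes tested, 41 (54.7%) had differences of the same sign, beside 53.3% of all 4009 pairs of named genes on opposite strands with overlapping spans or starts within 5 kb. In the 35 pairs with 5′ ends within 1 kb, 22 had the same sign, and in the 40 pairs further apart 19 did. By arrangement it was 10 of 13 divergent pairs without overlap, but 14 of 28 with overlapping 5′ ends. It was 10 of 20 nested pairs, 4 of 8 with overlapping 3′ ends and 3 of 6 convergent pairs. The 4009 pairs were not split by distance or arrangement, so these shares have no matched background. Over the 75 pairs Pearson's r between the 2 differences was 0.14 and Spearman's rho 0.21, as a description only, since the points share their 6 libraries. Among the partners 18 of 75 (24.0%) passed, 5 higher and 13 lower, with a median log2 difference of -0.37, beside 17.4% of all features (10.2% higher and 7.16% lower) and, by level, 18.3% from 0.5 to 5 and 27.6% at 5 or more scaled FPKM. Both genes passed in the Wdr83 and B9d1 pairs, in opposite directions in each, though B9d1os met the limit of 0.1 FPKM only through the GFP-negative libraries. Among all opposite-strand pairs both genes passed in 150, and in 54 of these (36.0%) they went opposite ways. A gene far below 0.5 FPKM cannot fall by much on the log2(scaled FPKM + 0.5) scale, so its ratio can carry mostly the difference of the partner. A rise is not limited in this way. The differences were 0.91 for Kank4os beside -0.18 for Kank4, and 0.54 for Hoxd3os1 beside -0.46 for Hoxd3.

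**Figure D3:**
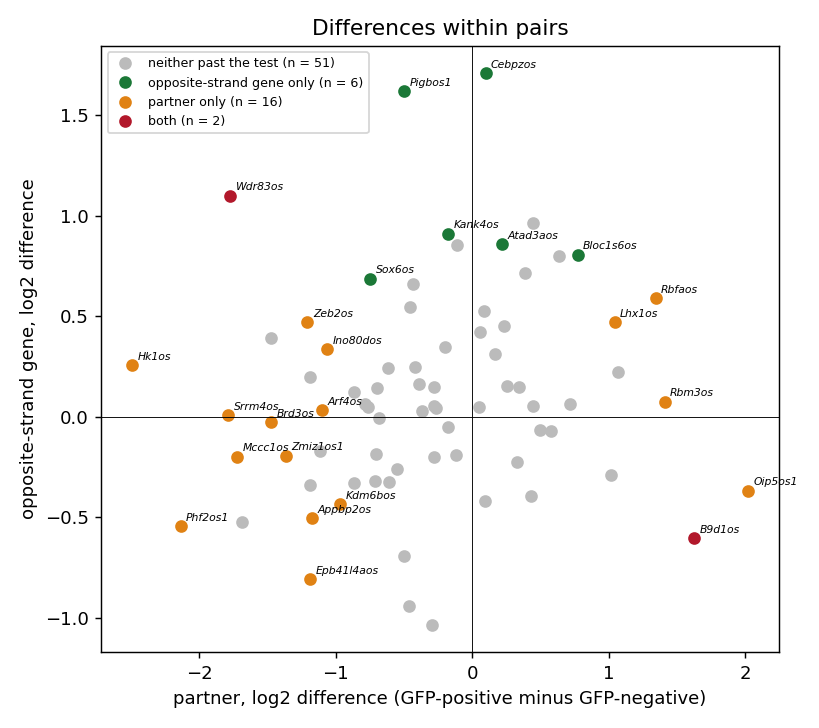
Log2 difference (GFP-positive minus GFP-negative) of each opposite-strand gene (vertical axis) against that of its partner (horizontal axis) for 75 pairs, coloured by which gene passed the test. Wdr83os and B9d1os, in red, sit in the quadrants of opposite sign, and 16 pairs in orange have a called partner beside an opposite-strand gene that did not pass.

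The ratio within a pair passed in 20 of 75 pairs (26.7%), 17 higher and 3 lower, close to the 26.9% of all opposite-strand pairs. The 3 lower ratios were those of B9d1os, Oip5os1 and Rbm3os, named after their values were seen, and in each the partner had risen. Oip5, a gene for centromere assembly, rose from 1.13 ± 0.286 to 6.18 ± 1.67 scaled FPKM (log2 difference 2.02, SE 0.30, limma adjusted p = 0.00870), and with an equal sum of FPKM the difference was 1.16 (limma adjusted p = 0.0467). Rbm3, which encodes a cold-induced RNA-binding protein, rose from 63.8 ± 19.3 to 166.3 ± 22.8 (log2 difference 1.41, SE 0.31, limma adjusted p = 0.0202), while Rbm3os overlapped between the groups (0.07). Of the higher ratios, the largest after Wdr83os was that of Hk1os, one of the genes nearest to the limit of 0.1 FPKM. Hk1, which encodes hexokinase, fell from 9.43 ± 4.66 to 1.13 ± 0.312 scaled FPKM (log2 difference -2.49, limma adjusted p = 0.0104), beside 0.0506 ± 0.0419 and 0.167 ± 0.142 for Hk1os.

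Of the 10 genes with the highest mean level, 7 did not pass. Oip5os1, also known as Cyrano, is a conserved long noncoding RNA that directs the decay of a microRNA (chromosome 2, 119424757 to 119437983, plus strand). It stood at 12.8, 8.06 and 11.1 scaled FPKM in the GFP-positive and 16.4, 10.4 and 14.97 in the GFP-negative libraries. The groups overlapped, with a log2 difference of -0.37 (95% interval -1.02 to 0.28, limma adjusted p = 0.373), and the ratio to Oip5, whose 5′ end is 24193 bp away, fell by 2.39 (SE 0.37, limma adjusted p = 0.00509). Brip1os, divergent from the helicase gene Brip1 at 118 bp, stood at 4.84 ± 0.969 in GFP-positive and 5.18 ± 1.47 scaled FPKM in GFP-negative libraries (log2 difference -0.07, 95% interval -0.74 to 0.61). Rab10os, which overlaps the 3′ end of the GTPase gene Rab10, stood at 4.16 ± 0.485 and 4.37 ± 0.169 (-0.07, 95% interval -0.63 to 0.49).

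Slc7a6os, which encodes a protein of nuclear transport, stood at 3.35 ± 1.23 and 4.24 ± 0.915 scaled FPKM (log2 difference -0.33, limma adjusted p = 0.472). Its partner Slc7a6, an amino acid transporter gene, did not overlap between the groups but did not pass (-0.86, limma adjusted p = 0.0628). Epb41l4aos was uneven in the GFP-negative libraries, at 0.997, 6.38 and 3.30 in 9, 11 and M against 1.44, 0.927 and 2.13 in GFP-positive 2, 4 and 7, and did not pass (-0.81, limma adjusted p = 0.297). Its partner Epb41l4a fell by 1.19 on the log2 scale (SE 0.32, limma adjusted p = 0.0371). Sp3os, at the 5′ end of the transcription factor gene Sp3, was at 2.47, 2.94 and 2.60 in the GFP-positive and 1.91, 0.620 and 1.08 in the GFP-negative libraries, without overlap (0.96, SE 0.34, limma adjusted p = 0.0802). Sp3 itself had a difference of 0.45 (limma adjusted p = 0.410).

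**Figure D4:**
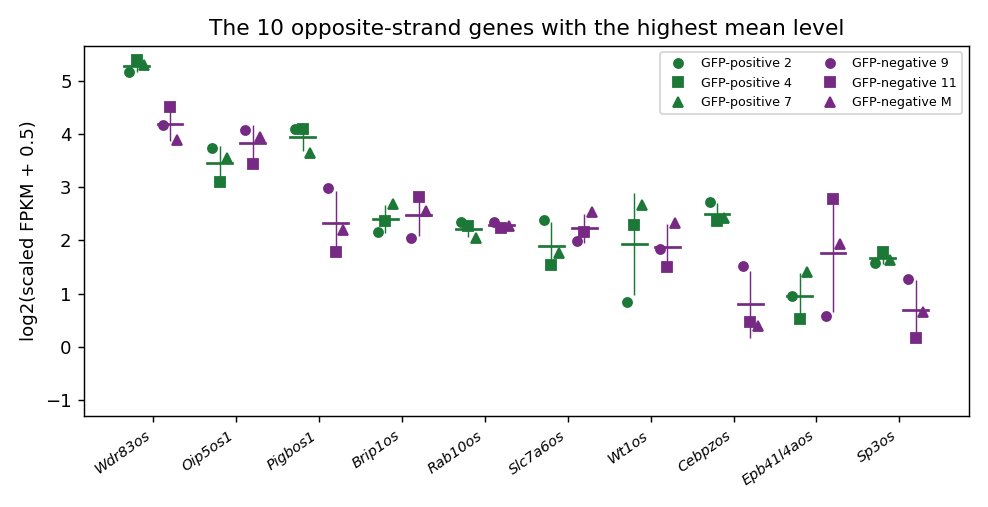
Levels of the 10 opposite-strand genes with the highest mean, as log2(scaled FPKM + 0.5), 1 symbol per library, with mean and SD of 3 libraries per group. Wdr83os, Pigbos1 and Cebpzos are apart between the groups and passed, Sp3os is apart and did not pass, and Wt1os spreads widely within the GFP-positive libraries.

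Wt1os is the opposite-strand gene of Wt1, the transcription factor gene that marks Sertoli cells and is needed for their upkeep (chromosome 2, 104906883 to 104956855, minus strand, 5′ ends 19 bp apart). Wt1os stood at 1.30, 4.41 and 5.86 scaled FPKM in the GFP-positive and 3.06, 2.31 and 4.51 in the GFP-negative libraries. GFP-positive 2 was the lowest of all, and the groups overlapped (log2 difference 0.05, 95% interval -1.03 to 1.14, limma adjusted p = 0.945). Wt1 stood at 5.94, 9.43 and 6.47 in the GFP-positive and 8.07, 7.82 and 10.6 in the GFP-negative libraries, also with overlap (-0.28, limma adjusted p = 0.487), and was likewise lowest in GFP-positive 2. With the unnamed isoforms of each locus added, Wt1 was at 18.7 ± 5.17 and 23.0 ± 4.99 and Wt1os at 4.25 ± 2.51 and 4.64 ± 1.35 scaled FPKM. Neither passed on that basis (limma adjusted p = 0.466 and 0.707).

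Wt1 was 1 of 10 partners on a list of developmental regulators. Of the 10 genes opposite them, Sox6os rose and the other 9 did not pass, with a median log2 difference of 0.41, beside 17.4% of all features past the test and 4.44% of those from 0.1 to 0.5 scaled FPKM. On the whole list of regulators 43 of 63 were tested, and 2 rose and 10 fell, with a median of -0.55. Lhx1os starts 83 bp from Lhx1, a LIM homeobox gene, and stood at 0.398, 0.240 and 0.0551 scaled FPKM in the GFP-positive and 0, 0.0362 and 0.0188 in the GFP-negative libraries (0.47, limma adjusted p = 0.133). Lhx1 was at 1.36, 0.517 and 0.396 against 0.0300, 0.167 and 0.0471 and passed (log2 difference 1.04, SE 0.30, limma adjusted p = 0.0440). Neither gene overlapped between the groups, both were highest in GFP-positive 2, and the call of Lhx1 was lost when any single library was left out.

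Zeb2os lies inside Zeb2, a zinc finger repressor gene. It stood at 0.567, 0.864 and 0.861 scaled FPKM in the GFP-positive and 0.483, 0.678 and 0.144 in the GFP-negative libraries, with overlap (0.47, limma adjusted p = 0.274). Zeb2 was at 7.93, 6.88 and 7.22 against 16.0, 18.4 and 18.5, and fell by 1.21 on the log2 scale (SE 0.23, limma adjusted p = 0.0144). The ratio rose by 1.68 (SE 0.35, limma adjusted p = 0.0103). Ratios were also higher for Runx2os1 (1.86, limma adjusted p = 0.0116) and Hoxd3os1 (1.00, limma adjusted p = 0.0333), where neither gene of the pair passed alone. Runx2os1 faces exons of the runt factor gene Runx2 over 65.5% of its exon bases. Hoxb3os (0.42), Emx2os (0.16), Gata6os (-0.26) and Foxl2os (-0.34) passed neither by themselves nor in the ratio. Foxl2os and Foxl2, the ovarian forkhead gene, were highest in GFP-negative 9 and M, at 0.406 and 0.172 for Foxl2os and 0.824 and 1.64 scaled FPKM for Foxl2.

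Other noncoding genes were taken from a list of well-known ones, many of them at the locus of a coding gene, without the 81. Of 40 listed, 25 were tested, none rose and 2 fell, beside 10.2% of all features higher and 7.16% lower. The median log2 difference of the list was -0.32. The 2 that fell were Malat1, a nuclear speckle RNA (from 1510 ± 318.3 to 450.6 ± 77.0 scaled FPKM, log2 difference -1.74, SE 0.39, limma adjusted p = 0.0215), and Norad, which binds Pumilio proteins (from 22.4 ± 5.48 to 10.3 ± 1.82, log2 difference -1.07, SE 0.28, limma adjusted p = 0.0324).

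All 22 listed Sertoli markers were above the filter of a mean of 0.1 scaled FPKM, as were 19 of 23 markers of other somatic testis cells. Among the Sertoli markers, Rhox5 and Gata1 were listed at 0 in some libraries. In GFP-positive cells 1 Sertoli marker rose (Dmrt1) and 4 fell (Sox9, Gata4, Tjp1 and Vim), beside 10.2% of all features higher and 7.16% lower. Sox9 fell from 44.1 to 11.6 and Gata4 from 7.81 to 1.70 scaled FPKM. Of 20 germ cell markers 14 were tested and 9 rose, none fell, and Prm1 and Prm2 were listed at 0. The summed level of the germ cell list was 132.8 to 183.9 scaled FPKM in the GFP-positive and 93.7 to 102.5 in the GFP-negative libraries. Uchl1, which neurons also express, made up most of the GFP-negative sums and was not higher in the GFP-positive libraries (-0.90, limma adjusted p = 0.256). Without Uchl1, left out after its values were seen, the other 13 tested markers summed to 39.4 to 165.0 in the GFP-positive and 2.13 to 4.22 in the GFP-negative libraries. The top of the GFP-positive range was GFP-positive 2. Dazl stood at 49.6, 4.73 and 4.22 and Mael at 49.1, 9.09 and 16.1 scaled FPKM in GFP-positive 2, 4 and 7. Stra8 and Kit were instead lowest in GFP-positive 2 among these libraries. Of 23 markers of other somatic testis cells 3 fell and none rose, with sums of 240.1 to 1903 and 535.4 to 1683. The germ cell list was higher in the libraries where the 7 opposite-strand genes rose, and its part in those rises was not tested. In such bulk samples more cells of a type and more RNA per cell cannot be told apart.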

How the data were processed

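Total RNA libraries from 6 samples of Sertoli cell lines were analysed. Per the submitters' processing notes, reads went through Trimmomatic, HISAT2 and StringTie on build mm39, without versions. The FPKM of each of 153503 transcripts and its per-base coverage signal are the authors' deposited values, per the file headers. FPKM was summed over the transcripts of a gene name. Unnamed loci kept their identifier, and 7902 unnamed transcripts at named loci (5.36% to 8.16% of the FPKM of a library) were left out. A median-of-ratios factor from 12377 genes scaled each library. Features with a mean scaled FPKM of at least 0.1 and a transcript of at least 200 nt entered limma 3.58.1 (R 4.3.3; eBayes with trend) on the log2(scaled FPKM + 0.5) scale, GFP-positive minus GFP-negative, Benjamini-Hochberg at 0.05. Ratios within pairs were fitted likewise over 4009 pairs. Counting intervals are not given, for want of read counts. Aligned bases are coverage times length. Levels are mean ± SD over 3 libraries.

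The fit was tested on simulated data for this contrast over 20904 features. It recovered 2 of 67 features at a log2 change of 1, 45 of 67 at 2, and 58 of 66 at 4, and it made 4 false calls. The data hold many more changed features than the simulation, so these shares do not carry over to them.

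Named are all called genes, the 10 of the highest mean, those opposite a gene of the marker or regulator lists, and the 4 nearest to the limit, each with its partner. Others are named for a feature of position or value seen in the tables. The genes and lists were chosen with earlier results of these data known. For the count of called genes 21 alternatives were planned, and 1, without GFP-negative 11 and M, was added after seeing the data. Tables were read with pandas 2.3.3 in Python 3.11.15 and figures drawn with matplotlib 3.10.9.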

Additional observations from a re-analysis of the deposited data

How the results depend on the processing

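The count of 8 opposite-strand genes past the test stayed within 1.5 times at pseudocounts of 0.1 and 1 (8 each), with FPKM as deposited (8), quantile normalization (7), unnamed isoforms added (8), spliced transcripts only (6) and an equal sum of FPKM (10, all lower). It was 3 with the filter or the membership limit at 0.5, 1 with no filter, 5 with no variance trend, and 13 and 0 at thresholds of 0.1 and 0.01. Leaving out 1 library gave 0 to 14, and leaving out GFP-negative 11 and M gave 0 (limma, 7 at an unadjusted p under 0.05). That last fit has GFP-negative 9 alone in its group, assumed to vary like the GFP-positive libraries, so little could pass and it says nothing on stability. The count of 20 ratios past the test was 8 with the filter at 0.5, 8 to 24 without 1 library and 0 without GFP-negative 11 and M, and 17 to 26 under the other alternatives. The cause of these shifts was not tested, beyond the fewer genes tested at 0.5 and the fewer libraries. For each of the 8 genes and of the partners Wdr83, B9d1, Oip5, Lhx1, Epb41l4a and Zeb2, the direction held in every alternative run that gave a value. The calls of Wdr83os, Pigbos1, Cebpzos, Atad3aos, Bloc1s6os, Kank4os and Sox6os were lost with no filter and with an equal sum of FPKM. Those of the partners B9d1 and Lhx1 were lost with an equal sum of FPKM, and those of Wdr83, Epb41l4a and Lhx1 with no filter. With no variance trend B9d1os, Bloc1s6os, Sox6os and Lhx1 were lost. Further losses were Sox6os and Epb41l4a with quantile normalization, Bloc1s6os in spliced transcripts, and Lhx1 at a pseudocount of 1 and with FPKM as deposited. Without GFP-negative M the calls of all 8 genes and of each of these partners were lost. B9d1os gave no value in spliced transcripts. No paired analysis was possible because the groups share no replicate numbers. Depth limits the 50 genes under 0.5 scaled FPKM, which rest on few aligned bases.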

Other observations

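Several partners fell beside an opposite-strand gene that did not pass, a set chosen after the values were seen. Phf2, which encodes a histone demethylase, fell from 5.89 ± 3.72 to 0.778 ± 0.171 scaled FPKM (log2 difference -2.14, limma adjusted p = 0.0192), and Phf2os1, which starts 7 bp away, went from 0.400 ± 0.101 to 0.121 ± 0.106 without passing (-0.54, limma adjusted p = 0.104). Mccc1, of leucine breakdown, fell from 14.9 ± 5.32 to 4.05 ± 0.921 (-1.72, limma adjusted p = 0.0135) beside 0.317 ± 0.118 and 0.208 ± 0.0640 for Mccc1os. Brd3, a bromodomain gene, fell from 10.1 ± 3.98 to 3.25 ± 1.14 (-1.47, limma adjusted p = 0.0284), and Brd3os, whose 5′ end is 65338 bp away, stood at 1.04 ± 0.254 and 1.02 ± 0.331. Srrm4, a splicing factor gene, fell from 2.13 ± 0.608 to 0.335 ± 0.502 (-1.79, limma adjusted p = 0.0248), and Srrm4os had a difference of 0.01.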
